A study of Homo sapiens with 17 samples.

Results

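The comparison described here sets CHP-134 cells after 6 days of all-trans retinoic acid (ATRA) beside the same cells after 3 days. It takes 4 of the 17 libraries of the study, 2 per time, whose groups were taken from the labels, and covers every gene that held enough counts, which is 20237 of the 60662 genes in the culture table. CHP-134 is an established human neuroblastoma cell line with extra copies of the oncogene MYCN, and it is highly sensitive to retinoic acid. Both groups were given ATRA at 2 µM, and the labels give no other difference between them than the time of exposure. The 4 other culture libraries, 2 with the solvent DMSO alone and 2 after 1 day of the same dose, entered the same model and serve below as a first-day comparison. The study's 9 libraries of CHP-134 tumors grown in mice were not analysed here. The study asks how retinoic acid and bone morphogenetic protein (BMP) signaling decide between death, arrest and differentiation, and the step from 3 to 6 days is the late part of that response.

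Neuroblastoma arises from embryonic cells on their way to becoming sympathetic neurons or adrenal chromaffin cells. Retinoic acid enters the nucleus, binds receptors of the RAR family on DNA and changes which genes are read, and in this lineage it can stop division and bring on nerve-like features. Cells leave the division cycle when cyclin-dependent kinases are held back, so that retinoblastoma family proteins stay bound to E2F factors, and the DREAM complex then keeps genes of DNA replication and mitosis shut. Neurons that have left the cycle build long processes from neurofilaments and microtubules, insert ion channels, assemble synapses and make a transmitter, which in sympathetic neurons is noradrenaline or acetylcholine.

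RNA was read as total RNA after removal of ribosomal RNA. The 3-day libraries held 31607051 and 33648413 expected counts, and the 6-day libraries held 32201873 and 33490015. Levels are given as CPM, counts scaled to a common library total, and the 2 values of a group are always in the order replicate 1, replicate 2. Differences are log2 fold changes with a standard error from edgeR's quasi-likelihood test, and "adjusted p" is its Benjamini-Hochberg value over the 20237 genes. A gene is said to have risen or fallen, to be called or to have passed the test only where this adjusted p was under 0.05 and the change or difference was more than 2-fold. The study describes these replicates as independent, but the labels do not say whether they were separate cultures, so p-values measure the spread between these samples, which may be technical. Many cells of this line die during 6 days of ATRA, so the 6-day libraries hold the RNA of the cells that were left. In such bulk samples fewer cells of a kind cannot be told apart from less RNA per cell. Counting by strand is not stated either, so values of the 44 among 218 genes named here that overlap another tested gene on the opposite strand may hold some of its reads. Gene positions are those of GENCODE v44 on hg38.

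The late step was large. From 3 to 6 days 4269 of the 20237 genes passed the test (21.1%), of which 2568 rose (12.7%) and 1701 fell (8.41%), against 554 genes (2.74%) between DMSO and 1 day of ATRA. Among protein-coding genes 1533 of 14126 rose (10.9%) and 1338 fell (9.47%), and a further 750 of the genes that rose were long noncoding RNAs, against 179 of those that fell. Changes of over 4-fold were seen for 844 genes upward and 426 downward. The genes that rose took 2.85% and 2.86% of all scaled counts at 3 days and 8.33% and 8.31% at 6 days, while those that fell went from 10.3% and 10.2% to 3.39% and 3.47%. Genes that fell were mostly well expressed beforehand, with a median of 14.3 CPM in the higher of the groups, and genes that rose had a median of 2.68 CPM there. Counts of called genes in the lists below are to be read beside the 12.7% and 8.41% of all genes. The median log2 fold change of all genes tested was 0.01. The scaling sets most genes near 0, so a change in total RNA per cell would not be seen in these values.

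**Figure D1:**
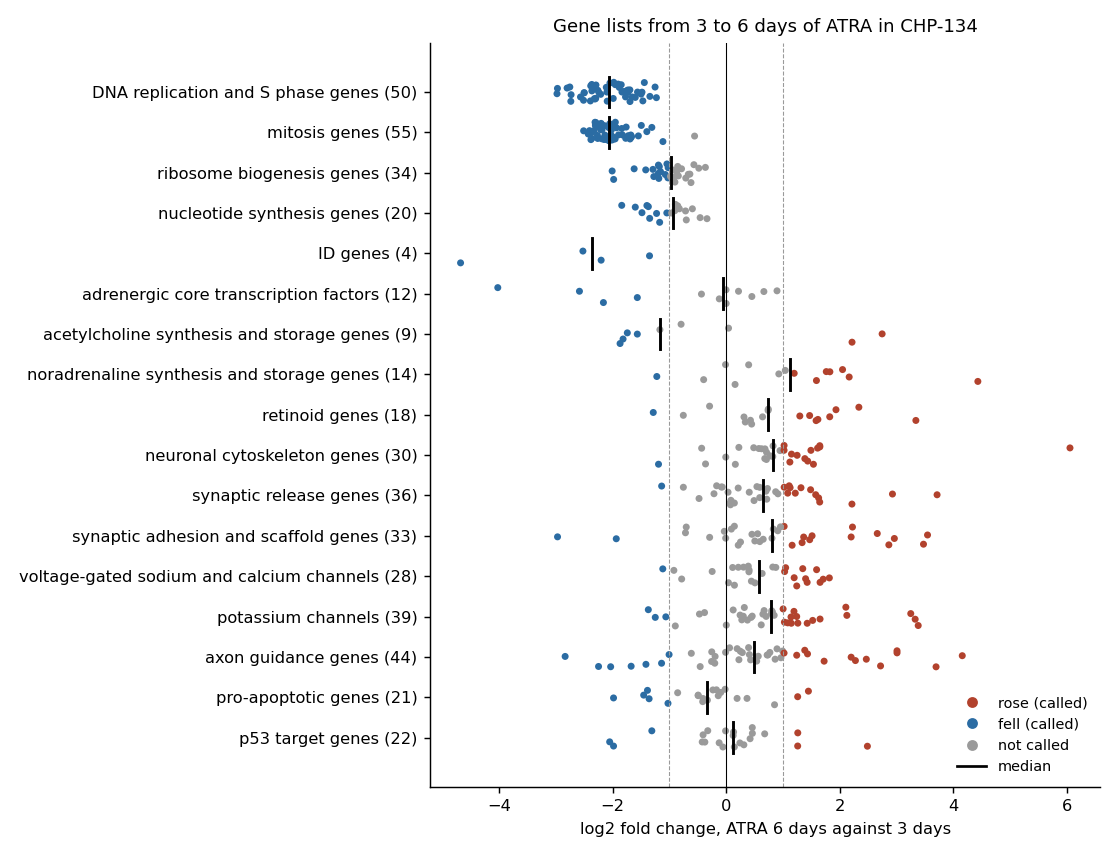
Log2 fold change from 3 to 6 days of ATRA (x axis) for the tested genes of 17 gene lists (rows, with the number of tested genes in brackets), with a point per gene coloured by its call, a black bar at each median and dashed lines at 2-fold (genes with no count in a group have no point). DNA replication and mitosis genes lie around their medians of −2.07, while neuronal lists spread to both sides with medians above 0.

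The genes of DNA replication fell without exception. All 50 tested genes of the S phase list fell, by log2 fold changes between 1.23 and 2.98, with a median of −2.07 beside 0.01 over all genes. RRM2 (ENSG00000171848.15, chromosome 2, 10120698 to 10211725, plus strand), the small subunit of the enzyme that makes deoxynucleotides, was at 271 and 267 CPM at 3 days and at 33.5 and 34.7 CPM at 6 days (log2 fold change −2.98 ± 0.030, adjusted p = 2.37e-40). CDC6 (ENSG00000094804.12, chromosome 17, 40287879 to 40304657, plus strand), which loads the replicative helicase at origins, went from 151 and 154 CPM to 19.95 and 18.99 CPM (−2.97 ± 0.036). Both time points were tight, and the higher 6-day library of either gene lay far under the lower 3-day library. At any distance, this order was found for 41% of all genes tested. The replication factor MCM10 fell by 2.80, cyclin CCNE2 by 2.75, the helicase subunit MCM2 by 2.26 and the sliding clamp PCNA by 2.11. On the first day of ATRA the same list had a median of 0.03, and no member was called in either direction. Changes inside 2-fold could still have an adjusted p under 0.05, as for MCM2 (0.08 ± 0.023, adjusted p = 0.0082), while CDC6 (−0.04 ± 0.025) did not.

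Mitosis genes fell by the same amount. Of 55 tested, 54 fell, again with a median of −2.07, and the exception, named here after its value was seen, was the checkpoint gene BUB3 (−0.56 ± 0.034). TOP2A (ENSG00000131747.15, chromosome 17, 40388525 to 40417896, minus strand), the topoisomerase that untangles chromosomes, was at 703 and 709.6 CPM at 3 days and 169 and 166 CPM at 6 days (−2.08 ± 0.022). PLK1 (ENSG00000166851.15, chromosome 16, 23677656 to 23690367, plus strand), a kinase of spindle assembly, was at 103 and 104 CPM and then at 21.8 and 23.1 CPM (−2.21 ± 0.038). UBE2C, which feeds the anaphase-promoting complex, fell by 2.51, cyclin CCNB1 by 2.41, CDK1 by 2.03 and the proliferation marker MKI67 by 2.19. With DMSO TOP2A had been at 956 and 935 CPM, so it was already lower at 3 days. On the first day no mitosis gene was called, with a list median of −0.09. Some first-day changes inside 2-fold had an adjusted p under 0.05, as for CCNB1 (−0.22 ± 0.029, adjusted p = 1.97e-07) and CDK1 (−0.09 ± 0.032, adjusted p = 0.035). MKI67 (−0.04 ± 0.023) did not.

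The regulators above them moved too. Of 21 genes of the E2F, retinoblastoma and DREAM list 10 fell and none rose, with a median of −0.87. E2F1, which turns on S phase genes, was at 199 and 195 CPM at 3 days and 58.8 and 61.4 CPM at 6 days (−1.71 ± 0.030), and E2F7 (−3.24), MYBL2 (−2.15) and FOXM1 (−2.39), the factors of S phase exit and of G2 and mitosis, fell further. RBL2, which encodes the retinoblastoma relative p130 of resting cells, was not among them, at 52.6 and 56.4 CPM and 57.8 and 57.8 CPM (0.08 ± 0.042). Among 7 CDK inhibitors CDKN1C (ENSG00000129757.13, chromosome 11, 2883213 to 2885775, minus strand), which encodes p57, was the only one to rise, from 6.50 and 5.82 CPM to 53.8 and 57.3 CPM (3.17 ± 0.077, adjusted p = 2.90e-29). As a share of the list that is 14.3%, against 12.7% of all genes. CDKN1A (p21) was at 0.42 ± 0.028 and CDKN1B (p27) at −0.21 ± 0.031, both inside 2-fold, and CDKN3 and CDKN2C fell (28.6%, against 8.41%). Of 9 cyclins and kinases of G1, CDK2 (−2.004), CDK4 (−1.28), CDC25A (−2.51) and CCND3 made up the 4 that fell, and cyclin CCND1 was at −0.47 ± 0.021.

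Promoters of the genes that fell are shown because mitosis and S phase genes moved together, and their promoters often hold short motifs that known cell cycle regulators read. The windows are from RefSeq (GRCh38.p14), run from 250 bases before to 50 bases after the transcription start, and are written 5′ to 3′ on the strand of the gene. Capitals mark, on either strand, TTTGAA (the core letters of the CHR element that DREAM reads; TTCAAA on the other strand) and CCAAT (the NF-Y box; ATTGG on the other strand) in PLK1 and TOP2A, TTTGGCGC (an E2F site) in CDC6 and E2F1, and CACGTG (the E-box that MYC proteins read) in UTP20, a ribosome assembly gene described below. PLK1 is at chr16:23678639-23678938 (plus strand), TOP2A at chr17:40417847-40418146 (minus strand), CDC6 at chr17:40287629-40287928 (plus strand), E2F1 at chr20:33686336-33686635 (minus strand) and UTP20 at chr12:101279855-101280154 (plus strand). Only the motifs named for a gene are marked in it, so other matches stay in lower case, such as CACGTG in PLK1 and CCAAT in CDC6 and E2F1.
PLK1: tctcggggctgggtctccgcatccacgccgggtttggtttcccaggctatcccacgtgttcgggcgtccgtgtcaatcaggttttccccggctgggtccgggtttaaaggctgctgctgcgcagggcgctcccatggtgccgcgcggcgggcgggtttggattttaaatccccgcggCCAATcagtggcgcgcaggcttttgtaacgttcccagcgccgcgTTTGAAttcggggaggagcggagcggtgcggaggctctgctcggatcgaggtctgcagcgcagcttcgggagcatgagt
TOP2A: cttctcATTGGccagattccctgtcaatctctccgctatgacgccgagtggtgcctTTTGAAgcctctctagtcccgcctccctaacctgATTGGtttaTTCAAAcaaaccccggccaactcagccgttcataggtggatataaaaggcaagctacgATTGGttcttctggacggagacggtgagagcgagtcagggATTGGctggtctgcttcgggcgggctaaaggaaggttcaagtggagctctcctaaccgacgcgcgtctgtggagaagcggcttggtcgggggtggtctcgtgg
CDC6: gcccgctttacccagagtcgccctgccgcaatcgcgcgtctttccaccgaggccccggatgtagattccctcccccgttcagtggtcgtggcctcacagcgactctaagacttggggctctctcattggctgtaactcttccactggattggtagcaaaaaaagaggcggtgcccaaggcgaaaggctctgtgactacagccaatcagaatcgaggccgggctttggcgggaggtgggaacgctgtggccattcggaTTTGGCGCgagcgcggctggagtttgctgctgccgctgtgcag
E2F1: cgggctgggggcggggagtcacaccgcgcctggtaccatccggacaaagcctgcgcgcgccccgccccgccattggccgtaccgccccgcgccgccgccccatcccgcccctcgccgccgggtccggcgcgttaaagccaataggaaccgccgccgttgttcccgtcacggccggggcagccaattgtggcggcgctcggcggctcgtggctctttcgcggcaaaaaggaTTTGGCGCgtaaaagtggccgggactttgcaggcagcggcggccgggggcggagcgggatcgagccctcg
UTP20: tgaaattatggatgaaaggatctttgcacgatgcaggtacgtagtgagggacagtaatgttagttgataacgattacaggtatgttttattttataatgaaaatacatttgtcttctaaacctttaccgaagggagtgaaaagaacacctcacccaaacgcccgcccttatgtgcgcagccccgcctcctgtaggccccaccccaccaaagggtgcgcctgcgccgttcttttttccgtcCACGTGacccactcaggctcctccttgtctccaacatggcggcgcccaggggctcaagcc

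Of the 55 mitosis genes 46 had a promoter in the table, and TTTGAA was found in 33 of them (71.7%), against 9.77% of 11302 promoters of tested protein-coding genes and 15.2% of all 35116 promoters. CCAAT stood in 35 of the same 46 (76.1%), against 36.4% and 34.6%. Of 43 S phase promoters 19 held TTTCCCGC or TTTGGCGC (44.2%), against 3.52% and 2.27%, and only 2 held TTTGAA. Of 30 promoters of ribosome biogenesis genes 13 held CACGTG (43.3%), against 10.2% and 7.26%. Each motif was searched on both strands, and matches of different motifs may share letters. A match is a description of the letters in the window and not of binding.

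**Figure D2:**
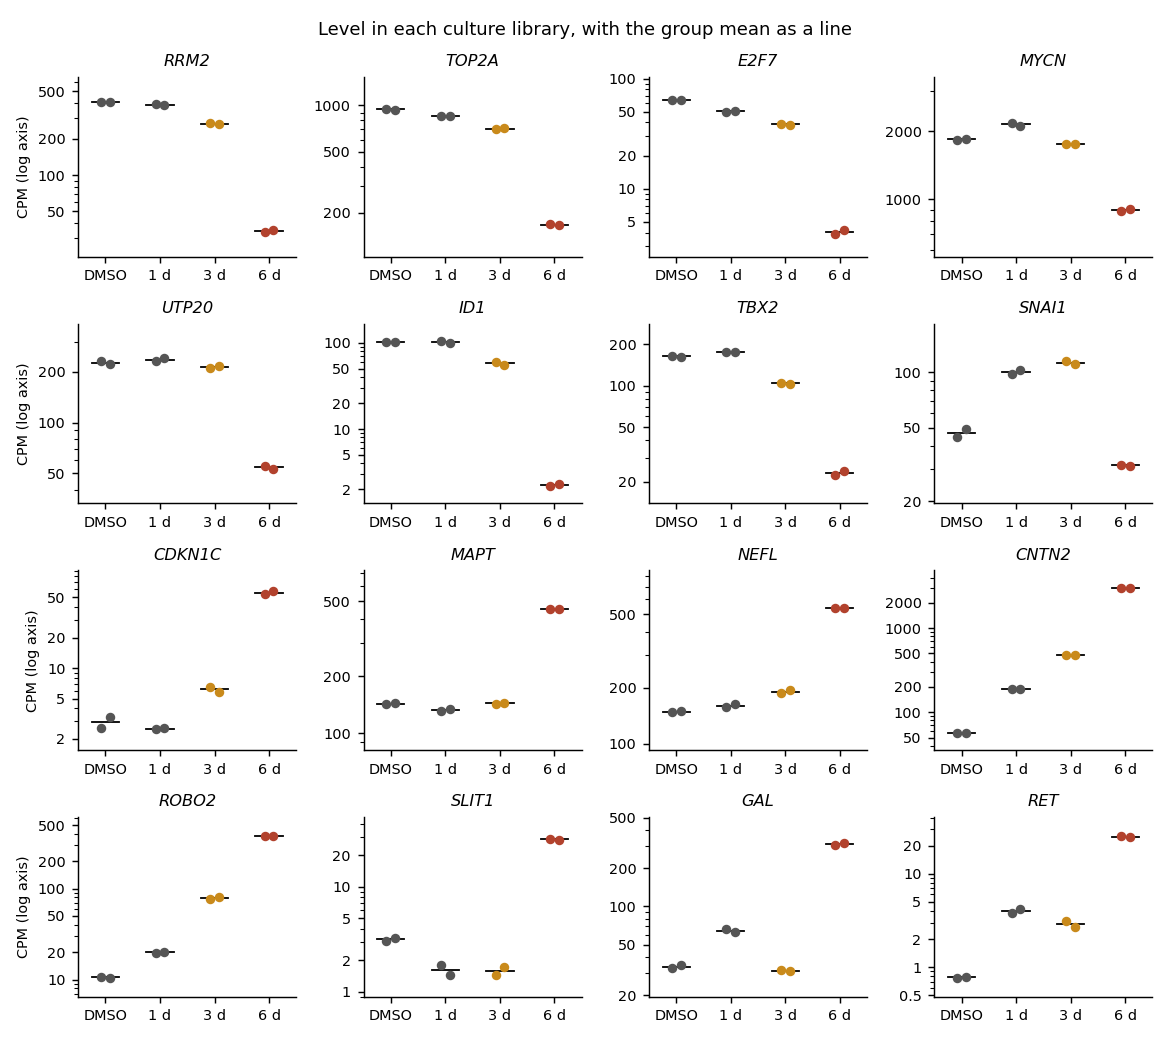
CPM of 16 genes in the 8 culture libraries (points; y axis on a log scale, x axis the 4 groups DMSO and 1, 3 and 6 days of ATRA), with a line at each group mean. The 2 libraries of a group lie close together in each panel, and the points at 6 days stand clear of those at 3 days in every panel, as for RRM2 (3 days 271 and 267, 6 days 33.5 and 34.7) and SLIT1 (3 days 1.43 and 1.73, 6 days 28.7 and 27.9). Most genes do so: of all 20237 tested, 42.3% had both 6-day libraries above both 3-day libraries and 41% had them below.

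Genes of cell growth fell along with division, by less. MYCN (ENSG00000134323.12, chromosome 2, 15940550 to 15947007, plus strand), the amplified oncogene, was at 1834 and 1856 CPM with DMSO, 1757 and 1761 CPM at 3 days and 892 and 909 CPM at 6 days. Its change of −0.97 ± 0.019 (adjusted p = 4.89e-32) lay just inside 2-fold and was therefore not called. MYCL, a relative, rose from 14.7 and 14.8 to 32.9 and 34.5 CPM (1.19 ± 0.068), and the partner MXD3 fell. Of 34 ribosome biogenesis genes 16 fell and none rose, with all 34 below 0 and a median of −0.97. RRP9 (−2.01) and UTP20 (−1.98), which help assemble the small subunit, led, with UTP20 at 212 and 217 CPM and then at 55.6 and 53.03 CPM. The nucleolar proteins NCL (−0.84 ± 0.023) and DKC1 (−0.87 ± 0.032) stayed inside 2-fold, and FBL (−1.03 ± 0.033) lay at the threshold.

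Among metabolic lists the nucleotide enzymes fell. Of 20 nucleotide synthesis genes 9 fell and none rose, with a median of −0.93, among them SHMT1 (−1.84), MTHFD1 (−1.60), the pyrimidine enzyme CAD (−1.48) and the purine enzyme PAICS (−1.35). ODC1, the first enzyme of polyamine synthesis and a known MYCN target, was at 274 and 271 CPM at 3 days and 102 and 98.5 CPM at 6 days (−1.44 ± 0.026), and the polyamine enzymes AMD1 (−1.40) and SRM (−1.26) fell with it. Of all 11 polyamine genes 3 fell (27.3%, against 8.41% of all genes) and 2 rose (18.2%, against 12.7%). In glycolysis 4 of 24 genes fell (16.7%, against 8.41%), with LDHA (−1.83), PKM (−1.39) and the glucose carrier SLC2A1 (−1.08) among them. The oxygen sensor EGLN3 alone rose (1.66 ± 0.038), which is 4.17%, against 12.7%. Of 22 cholesterol synthesis genes TM7SF2 alone was called, upward (1.82 ± 0.062), which is 4.55%, against 12.7% of all genes. Of 24 genes of a chromatin list, writers of histone and DNA marks and other nuclear proteins, 9 fell (37.5%, against 8.41%) and none rose. Those that fell included the maintenance methylase DNMT1 (−1.31), its partner UHRF1 (−2.30) and SUV39H1 (−2.29). LMNB1, H2AFZ, HMGN2 and HMGB1, which are not writers, are also counted in the 9. EZH2 was at −0.80 ± 0.040 and its relative EZH1 at 0.62 ± 0.035.

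The ID genes, BMP targets whose products hold back bHLH factors, fell sharply in this step. ID1 (ENSG00000125968.9, chromosome 20, 31605283 to 31606515, plus strand) was at 60.4 and 55.2 CPM at 3 days and at 2.19 and 2.32 CPM at 6 days (−4.68 ± 0.074, adjusted p = 7.51e-35), a mean of 57.8 ± 3.70 against 2.25 ± 0.0959 CPM (SD, n = 2). ID3 went from 175 and 172 to 29.7 and 30.7 CPM (−2.52 ± 0.034), ID2 from 34.1 and 32.7 to 7.47 and 7.05 CPM (−2.20 ± 0.063) and ID4 from 18.8 and 18.1 to 7.53 and 6.94 CPM (−1.35 ± 0.078). With DMSO ID1 had been at 102 and 103 CPM and ID2 at 63.1 and 60.6 CPM, so both were already lower at 3 days. ID3 had been at 159 and 160 CPM and ID4 at 18.4 and 17.4 CPM. The 2 inhibitory SMADs, which are both targets and brakes of the pathway, fell as well, SMAD6 from 116 and 119 to 16.3 and 16.6 CPM (−2.83 ± 0.040) and SMAD7 by 1.43. They were the only 2 of 12 BMP receptors and SMADs to be called (16.7% down, against 8.41% of all genes). The signal carrier SMAD9 was at 231 and 243 CPM and 169.6 and 171 CPM (−0.48 ± 0.026).

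Secreted BMP proteins and their antagonists were called at about the rate of all genes. Of 17 tested 3 rose (17.6%, against 12.7% of all genes), CHRD (1.72) and BMP7 (1.23) among them, and GREM1 fell (5.88%, against 8.41%). BMP7 was at 9.87 and 10.7 CPM with DMSO, 4.53 and 4.89 CPM at 3 days and 12.2 and 9.94 CPM at 6 days. CHRD encodes an antagonist that binds BMP ligands outside the cell, and it was at 10.9 and 10.4 CPM and then at 36.02 and 34.1 CPM. Among 8 other BMP targets GATA2 (−2.58) and SNAI2 (−3.31) fell, as did MSX2 and 1 more, and DLX5 rose (1.18 ± 0.082). MSX2, at 0.638 and 0.686 CPM, had no count in either 6-day library and was at least 14.8-fold lower, taking a floor of 3 counts over the group.

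Genes of retinoid handling continued upward. Of 18 tested 8 rose (44.4%, against 12.7% of all genes) and 1 fell (5.56%, against 8.41%), with a median of 0.74. CYP26B1, which breaks retinoic acid down, was at 0.615 and 0.264 CPM with DMSO, 8.26 and 7.79 CPM at 3 days and 40.1 and 40.8 CPM at 6 days (2.33 ± 0.082). CRABP1, a cytoplasmic carrier of retinoic acid, went from 19.6 and 19.4 to 74.3 and 74.8 CPM (1.93 ± 0.054). RARB, a receptor gene that is itself a retinoid target, was at 0.923 and 0.704 CPM with DMSO, 7.47 and 7.98 CPM at 1 day, 15.1 and 15.8 CPM at 3 days and 25.5 and 26.01 CPM at 6 days, with a late change of 0.74 ± 0.072, a first-day change of 3.23 ± 0.14 and a difference, late minus first day, of −2.49 ± 0.17 (adjusted p = 1.16e-15). RARA was at 0.64 ± 0.024. RDH10, which makes retinaldehyde, fell (−1.28 ± 0.13). ADH1A and ADH1B, alcohol dehydrogenases able to oxidise retinol, were at or under 0.03 CPM up to 1 day, reached 0.765 and 0.537 CPM and 0.542 and 0.626 CPM at 3 days and 15.2 and 14.6 CPM and 12.3 and 13.4 CPM at 6 days. They are close copies of each other, so reads may be shared between them.

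Factors that set neuronal identity went in both directions. REST, the repressor of neuronal genes in other cells, fell from 10.8 and 11.04 to 2.40 and 2.32 CPM (−2.21 ± 0.11). In the opposite direction NEUROG2 went from 5.52 and 6.03 to 28.5 and 27.3 CPM (2.27 ± 0.086) and EBF3 from 62.01 and 60.6 to 136 and 141 CPM (1.18 ± 0.033). Of 17 proneural genes 4 rose (23.5%, against 12.7% of all genes) and 2 fell (11.8%, against 8.41%). NEUROD1 was at 378 and 383 CPM and 414 and 423 CPM (0.14 ± 0.021), and the E-protein TCF4 (0.73 ± 0.021) and MYT1L (0.64 ± 0.025) stayed inside 2-fold. Of 15 Notch genes 5 rose (33.3%, against 12.7% of all genes), with MFNG (2.23), HEYL (1.75) and HES4 (1.37) first. HES1, at 0.733 and 0.477 CPM and then 0.0607 and 0.176 CPM, fell. MFNG was at 3.18 and 3.90 CPM with DMSO and 2.22 and 3.59 CPM at 6 days. HES4 was at 1.46 and 1.91 CPM with DMSO and 2.07 and 1.76 CPM at 6 days.

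The circuit of adrenergic identity did not move as one. Of its 12 tested factors 4 fell (33.3%, against 8.41% of all genes) and none rose. Those that fell included GATA2, TBX2, from 104 and 103 to 22.3 and 23.96 CPM (−2.16 ± 0.037), and ISL1, from 15.6 and 14.4 to 4.92 and 5.20 CPM (−1.56 ± 0.082). GATA3 was at −0.44 ± 0.025. Genes of the mesenchymal state, the other identity of neuroblastoma cells, were mostly low. Of 21 tested 7 fell (33.3%, against 8.41%) and 1 rose (4.76%, against 12.7%). Among those that fell were VIM, from 125 and 130.3 to 38.9 and 40.4 CPM (−1.69 ± 0.036), SNAI2, PRRX1 (−1.31) and CD44 (−2.12). Of 10 tested HOX genes from the retinoid-sensitive end of the clusters 3 rose (30.0%, against 12.7% of all genes) and none fell. HOXB5 led, at 0.0638 and 0.268 CPM and then 4.19 and 3.70 CPM.

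Neuronal cytoskeleton genes rose. Of 30 tested 13 rose (43.3%, against 12.7% of all genes) and 1 fell, with a median of 0.82. MAPT (ENSG00000186868.15, chromosome 17, 45894527 to 46028334, plus strand), the axonal protein tau, was at 143 and 146 CPM at 3 days and 453 and 451 CPM at 6 days (1.65 ± 0.024), STMN2 at 163 and 162 and 490.1 and 502 CPM (1.61 ± 0.024) and DCX, doublecortin, at 321 and 321 and 842 and 833 CPM (1.38 ± 0.022). With DMSO MAPT had been at 142 and 145 CPM, STMN2 at 164 and 162 CPM and DCX at 269 and 264 CPM, close to their 3-day levels. The neurofilaments parted: the light chain NEFL went from 188 and 194 to 537 and 536 CPM (1.49 ± 0.024) and the medium chain NEFM from 461 and 460.3 to 1085 and 1104 CPM (1.25 ± 0.042), while the heavy chain NEFH, went down from 163 and 173 to 75.1 and 71.99 CPM (−1.19 ± 0.039). MAP2, of dendrites, was at 0.82 ± 0.022 and GAP43, of growth cones, at 0.71 ± 0.040. Of the tubulins TUBA1A rose from 1901 and 1851 to 3805 and 3794 CPM (1.02 ± 0.020) and TUBA1B fell from 1745 and 1719.7 to 574 and 674 CPM (−1.47 ± 0.087). These are near-identical copies, so the split of reads is uncertain, and without the 3-day replicate 2 TUBA1A changed by 0.99 and was no longer called. TUBB4A was at 0.0319 and 0 CPM at 3 days and 1.28 and 1.23 CPM at 6 days.

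At the synapse the rises outnumbered the falls by far. Of 36 release genes 13 rose (36.1%) and 1 fell (median 0.64), and of 33 adhesion and scaffold genes 13 rose (39.4%) and 2 fell (median 0.81). CNTN2 (ENSG00000184144.12, chromosome 1, 205042937 to 205078289, plus strand), an axonal adhesion protein, showed the largest gain in CPM among called genes, from 480.3 and 478 to 3018 and 3032 CPM (2.66 ± 0.020, adjusted p = 2.02e-44), after 57.1 and 56.8 CPM with DMSO. Its relative CNTN1 went from a mean of 6.97 ± 0.479 to 54.3 ± 0.417 CPM (SD, n = 2; 2.96 ± 0.067) and CADM2 from 0.255 and 0.328 to 3.34 and 3.56 CPM (3.54 ± 0.28). Of the release machinery SV2B rose (2.21 ± 0.16), as did CPLX3 and RPH3A from under 0.3 CPM, whereas the core genes SYT1 (0.59 ± 0.027), SNAP25 (0.87 ± 0.051) and SYN1 (0.70 ± 0.042) were higher by less than 2-fold. CNTN5 and LRRTM1, both under 1 CPM at 3 days, fell.

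Ion channels followed the same course. Of 28 sodium and calcium channel genes 11 rose (39.3%) and 1 fell (median 0.57), and of 39 potassium channel genes 16 rose (41.0%) and 3 fell (median 0.80). KCND3, of the A-type current, went from 3.03 and 3.37 to 32.8 and 31.5 CPM (3.33 ± 0.10), and the calcium channel subunit CACNA2D2 from 10.9 and 11.2 to 39.6 and 38.2 CPM (1.81 ± 0.067). The sodium channels SCN2A (1.24) and SCN9A (1.65) rose. Of 39 transmitter receptors 10 rose (25.6%, against 12.7% of all genes) and 4 fell (10.3%, against 8.41%), with a median of 0.46. CHRNA4 went from 2.33 and 1.999 to 28.2 and 29.9 CPM (3.75 ± 0.11) and P2RX3 from 11.7 and 11.9 to 58.8 and 58.1 CPM (2.31 ± 0.063), while CHRNA3, the ganglionic nicotinic subunit, was at 588 and 597 CPM at 3 days and changed by 0.25 ± 0.021, and HTR3A (−2.03) and GRM8 (−1.95) fell.

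Genes of the sympathetic transmitters were called in both directions. Of 14 noradrenaline genes 7 rose and 1 fell, with a median of 1.12. DBH, which turns dopamine into noradrenaline, was at 0.128 and 0.179 CPM at 3 days and 3.40 and 3.38 CPM at 6 days (4.43 ± 0.54), TH, the first enzyme, at 0.956 and 0.746 and 2.73 and 3.29 CPM (1.82 ± 0.25), and the noradrenaline carrier SLC6A2 at 0.478 and 0.597 and 2.07 and 2.41 CPM (2.05 ± 0.29). PNMT, which makes adrenaline, reached 45.9 and 43.2 CPM from 9.72 and 10.1 CPM. TH and DBH were thus under 4 CPM at 6 days, and GCH1, which supplies the cofactor of TH, fell (−1.22 ± 0.073). Of 9 acetylcholine genes 4 fell (44.4%, against 8.41% of all genes) and 2 rose (22.2%, against 12.7%), with a median of −1.17. The transmitter enzyme CHAT was at 50.2 and 48.4 and 28.7 and 28.1 CPM (−0.79 ± 0.046) and was not called. The genes that fell were the factors ISL1, MNX1 and TBX20 and the enzyme anchor PRIMA1, none of which makes or stores acetylcholine. ISL1 is also counted in the adrenergic list. Those that rose were acetylcholinesterase ACHE (2.74 ± 0.27) and its collagen tail COLQ.

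Neuropeptide and receptor genes showed some of the steepest rises. GAL (ENSG00000069482.7, chromosome 11, 68683779 to 68691175, plus strand), galanin, was at 65.98 and 62.4 CPM at 1 day, 31.4 and 31.1 CPM at 3 days and 304 and 316 CPM at 6 days (3.31 ± 0.035, adjusted p = 8.36e-40). ADCYAP1, the peptide PACAP, went from 9.56 and 10.5 to 46.1 and 48.1 CPM (2.23 ± 0.069). GAL, ADCYAP1 and NPPB were the 3 that rose among 11 tested peptide and granin genes (27.3%, against 12.7%), where none fell. CHGA was at 0.64 ± 0.025 and SCG2 at 0.80 ± 0.022. Of 19 growth factor receptors 6 rose (31.6%, against 12.7% of all genes) and 4 fell (21.1%, against 8.41%). RET (ENSG00000165731.19, chromosome 10, 43077064 to 43130351, plus strand), the receptor of GDNF ligands, was at 3.79 and 4.23 CPM at 1 day, 3.16 and 2.68 CPM at 3 days and 25.3 and 24.7 CPM at 6 days (3.10 ± 0.10), ALK went from 63.8 and 64.3 to 147 and 156 CPM (1.24 ± 0.036) and NGFR from 8.61 and 9.01 to 24.6 and 22.3 CPM (1.41 ± 0.091). Of the receptors that fell, NTRK2 (−1.29), FGFR2 (−2.49) and the GDNF family co-receptor GFRA2, from 118 and 115 to 15.9 and 15.1 CPM (−2.91 ± 0.042), changed most.

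Axon guidance genes changed in both directions, with 13 of 44 rising (29.5%) and 7 falling (15.9%) around a median of 0.48. SLIT1, a repellent, was at 1.43 and 1.73 CPM at 3 days and 28.7 and 27.9 CPM at 6 days (4.15 ± 0.11), while its relative SLIT3 fell (−1.41 ± 0.065). The SLIT receptor ROBO2 went from 76.4 and 80.8 to 381 and 379 CPM (2.27 ± 0.029), the semaphorin receptor PLXNA4 from 25.9 and 24.8 to 114 and 119 CPM (2.20 ± 0.048) and the adhesion receptor DSCAM from 0.446 and 0.358 to 5.19 and 5.26 CPM (3.69 ± 0.25). SEMA5A rose (3.01 ± 0.13) and its relative SEMA5B fell (−2.84 ± 0.15). Of the netrin receptors DCC rose from 1.31 and 1.70 to 3.46 and 3.67 CPM (1.24 ± 0.18), and UNC5B fell from 150.0 and 151 to 37.9 and 35.6 CPM (−2.03 ± 0.033). With DMSO DCC had been at 3.62 and 3.75 CPM, close to its 6-day level.

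Markers of other cell types were mixed, with some at 0 and some expressed. SOX10, a defining Schwann cell factor, had no count at either time, and the endothelial PECAM1 and leukocyte PTPRC stayed under 0.2 CPM in each of the 4 libraries. The summed level of 7 fibroblast markers was 41.2 and 37.8 CPM at 3 days and 32.9 and 35.1 CPM at 6 days, most of it PDGFRB and COL1A1, and 1 of the 7 rose (DCN, 0.383 and 0.776 to 2.40 and 2.88 CPM) and 2 fell. Endothelial markers summed to 48.5 and 43.1 CPM and then to 133 and 144 CPM, nearly all of it CLDN5 (47.7 and 42.4 and 132 and 142 CPM), and 5 of the 7 in that list had too few counts to be tested. Schwann cell markers summed to 8.32 and 9.13 CPM and then to 14.9 and 13.5 CPM, with 2 of 4 tested called upward, CDH19 among them (0.0638 and 0.0597 and 0.941 and 0.735 CPM), and the 8 leukocyte markers stayed under 0.9 CPM in sum. The neural stem marker NES was at 218 and 221 and 262 and 265 CPM.

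Death genes went in both directions. Of 21 pro-apoptotic genes 2 rose (9.52%, against 12.7% of all genes) and 5 fell (23.8%, against 8.41%), with a median of −0.33. HRK, a BH3-only gene of neurons, went from 3.63 and 3.49 to 9.93 and 9.49 CPM (1.45 ± 0.13) and BBC3 (PUMA) from 1.66 and 1.70 to 4.28 and 3.76 CPM (1.26 ± 0.20), and PMAIP1 (NOXA) fell from 38.5 and 35.3 to 12.8 and 14.1 CPM (−1.45 ± 0.061) along with BAK1 (−1.39) and 3 others. BMF, a further BH3-only gene, was at 3.18 and 2.99 CPM with DMSO, 19.6 and 19.6 CPM at 3 days and 13.9 and 13.96 CPM at 6 days (−0.49 ± 0.078). Of 8 survival genes BCL2 (−1.23 ± 0.15) and the mitotic BIRC5 (−2.15 ± 0.029) fell (25.0%, against 8.41%), and none rose. MCL1 was at −0.28 ± 0.026 and BCL2L1 at 0.32 ± 0.041. The p53 targets had a median of 0.13, with 3 of 22 up (GDF15, TP53INP1 and BBC3) and 3 down, AEN and DDB2 among them. Each share was 13.6%, against 12.7% up and 8.41% down over all genes, and MDM2 was at −0.38 ± 0.025.

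Stress lists differed in how many genes were called. In the ATF4 and unfolded protein list 3 of 25 rose, CHAC1 (1.39), TRIB3 (1.36) and ATF5 (1.32), and 3 fell, SDF2L1, SLC7A5 and PSAT1, with HSPA5 at −0.47 ± 0.023. Of 31 lysosome genes GLA alone was called, downward (3.23%, against 8.41% of all genes). Autophagy genes rose at about the rate of all genes, 3 of 24 (12.5%, against 12.7%). They were OPTN, from 7.30 and 7.16 to 27.7 and 27.1 CPM (1.92 ± 0.082), WIPI1 (1.295 ± 0.093) and MAP1LC3A. The last had no count at 3 days and was at 0.941 and 1.53 CPM at 6 days, at least 26.7-fold higher over a floor of 3 counts. The senescence list showed no common rise: of 11 tested genes 2 rose (18.2%, against 12.7%) and 6 fell (54.5%, against 8.41%). VEGFA, from 25.1 and 25.1 to 95.1 and 96.3 CPM (1.93 ± 0.046), and GDF15 rose. IGFBP4 (−2.74), LMNB1 (−1.44) and HMGB2 (−1.63) were among those that fell. LMNB1 and HMGB2 are nuclear proteins that many arrested cells lose, not secreted factors. The 12 other listed genes, interleukins and matrix proteases among them, had too few counts to be tested. B2M, of MHC class I, fell from 37.05 and 37.5 to 17.4 and 15.5 CPM (−1.18 ± 0.057).

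The largest rises by fold are given for protein-coding genes with a mean of at least 5 CPM over the 4 libraries. A gene low at 3 days passes this limit only if it is high at 6 days, so low starting levels at the top of the order follow from the rule. MUC19, a mucin, was at 0.319 and 0.209 CPM at 3 days and 16.5 and 13.8 CPM at 6 days (5.83 ± 0.21), NOS1, neuronal nitric oxide synthase, at 0.446 and 0.328 and 14.2 and 14.7 CPM (5.22 ± 0.19) and PADI2, which turns arginine into citrulline, at 0.893 and 0.984 and 31.01 and 30.95 CPM (5.04 ± 0.13). NTSR1, a neurotensin receptor (4.80), the lysosomal protein LAPTM5 (4.67), C7orf33 (4.67), BPIFC (4.66) and the adaptor SKAP1 (4.40) completed the 10 with ADH1A and ADH1B. In level the largest gains among called genes after CNTN2 were those of MT-CYB and TUBA1A, then ENPP2 (autotaxin), from 999 and 1014 to 2504 and 2516 CPM (1.32 ± 0.020), and PLEKHA6, from 827 and 832 to 2087 and 2080.5 CPM (1.33 ± 0.019). With DMSO ENPP2 had been at 4.36 and 4.87 CPM and PLEKHA6 at 10.6 and 11.1 CPM.

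Among the largest falls after ID1 were ARHGAP36, from 29.04 and 27.00 to 1.49 and 1.15 CPM (−4.41 ± 0.088), EMILIN2 (−4.22 ± 0.11), the kinesin KIF21B (−3.61 ± 0.10) and KITLG, the ligand of KIT, from 22.3 and 22.5 to 1.88 and 1.94 CPM (−3.55 ± 0.096). EXOC3L2, E2F7, MFAP4 and the replication-dependent histone HIST1H3D (−3.36 ± 0.10), whose reads may be shared with other histone copies, were also among them. In level RN7SL2, the RNA of the signal recognition particle, lost most, from 24211 and 22722 to 5149 and 5938 CPM (−2.08 ± 0.12). It has near-identical copies, so its value is uncertain. HSP90AA1 (−1.08 ± 0.019), TUBA1B, the DNA repair kinase PRKDC (−1.03 ± 0.019) and PKM followed in that order of loss.

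Transcripts of the mitochondrial genome made up 2.05% and 2.06% of counts at 3 days and 3.27% and 3.26% at 6 days. Of 13 genes MT-CYB rose (7.69%, against 12.7% of all genes), from 1028 and 1029 to 3266 and 3250.5 CPM (1.66 ± 0.025), and none fell, with a median of 0.65. MT-CO1, for one, was at 0.33 ± 0.017, so the transcripts did not move by a common factor. With these transcripts left out of the fit 4272 genes were called late, and 99.95% of the late calls were kept.

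The late step was next set beside the first day. The arms share no library, but the first covers 1 day and the late one 3 days, so sizes compare steps and not rates. Of the 2568 genes that rose late 75.5% had an adjusted p of 0.05 or more on the first day, and of the 1701 that fell late 65.4% did. Of the 394 genes that rose on the first day (1.95% of those tested) 182 rose again late, which is 46.2% of the first-day list and 7.09% of the late list. Of the 160 that fell on the first day (0.791%) 44 fell again and 42 rose, or 27.5% and 26.2%. The difference between the steps passed the test for 3623 genes (17.9%), 1891 higher (9.34%) and 1732 lower (8.56%) in the late step.

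A group of 66 genes was called in opposite directions, 24 up and then down and 42 down and then up. DESeq2 left 34 such genes, with 308 first-day calls in place of 554. The difference between the steps passed the test for all 66, which their selection brings about. SOX9, a factor of neural crest and cartilage, was at 2.56 and 2.58 CPM with DMSO, 17.2 and 17.3 CPM at 1 day, 32.7 and 32.2 CPM at 3 days and 11.9 and 13.5 CPM at 6 days (late −1.35 ± 0.068, first day 2.74 ± 0.094, difference −4.09 ± 0.12, adjusted p of the difference 1.01e-26). SNAI1, a repressor of epithelial genes, was at 44.6 and 48.96 CPM, 97.8 and 103 CPM, 115 and 111 CPM and 31.6 and 31.1 CPM in the same order (difference −2.95 ± 0.057), and ALX4, a homeobox factor, at 9.13 and 9.998, 44.5 and 46.1, 56.3 and 53.9 and 13.8 and 13.6 CPM (difference −4.25 ± 0.081). These genes stood highest at 3 days. By 6 days SOX9 and ALX4 had lost most of the gain, and SNAI1 was below both of its DMSO libraries. PRG2 and LHFPL2 also rose on the first day and fell late.

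Among genes that went down and then up, SLC6A2 was at 2.97 and 4.87 CPM with DMSO, 1.55 and 1.17 CPM at 1 day, 0.478 and 0.597 CPM at 3 days and 2.07 and 2.41 CPM at 6 days (difference 3.56 ± 0.36), and SV2B at 4.18 and 4.37, 1.68 and 1.78, 1.24 and 1.52 and 6.32 and 6.56 CPM (difference 3.51 ± 0.23). CADM2, MFNG and the acetylcholine receptor subunit CHRND (3.73 and 4.21 to 9.60 and 10.96 CPM) did likewise. At 6 days SV2B and CADM2 were above their DMSO level, and SLC6A2 was below the lower of its DMSO libraries. The ID genes and the replication genes differed between the steps in another way, with no call on the first day and falls later: the difference passed the test for 4 of 4 ID genes, 50 of 50 S phase genes and 54 of 55 mitosis genes, all downward.

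**Figure D3:**
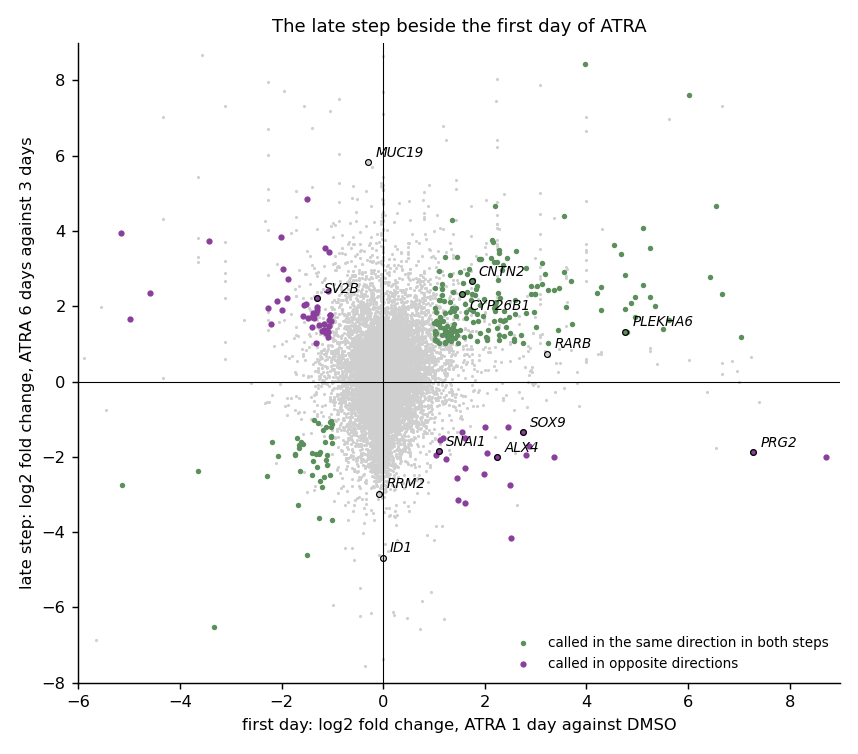
Log2 fold change of the first day (ATRA 1 day against DMSO, x axis) and of the late step (6 days against 3 days, y axis) for 20237 genes, of which 15 lie outside the axes. The 226 genes called in the same direction in both steps are green, the 66 called in opposite directions are purple, and ID1 and RRM2 lie near 0 on the x axis and far below 0 on the y axis.

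The genes that rose also differed from those that fell in how much of the genome they span. Protein-coding genes that rose had a median span of 39.2 kb from start to end (quartiles 13.4 and 130 kb), those that fell 30.2 kb (11.2 and 72.4 kb) and all tested ones 34.6 kb (13.5 and 86.1 kb). Spans of over 200 kb were found in 18.3% of the genes that rose, 6.95% of those that fell and 9.08% of all. CNTN1, ROBO2, DCC, CADM2 and DSCAM, named above among the rises, are known as long genes of neurons. CNTN5 and GRM8, named above among the falls, are long as well. Total RNA holds unspliced transcripts, and their share was not measured in these counts.

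**Figure D4:**
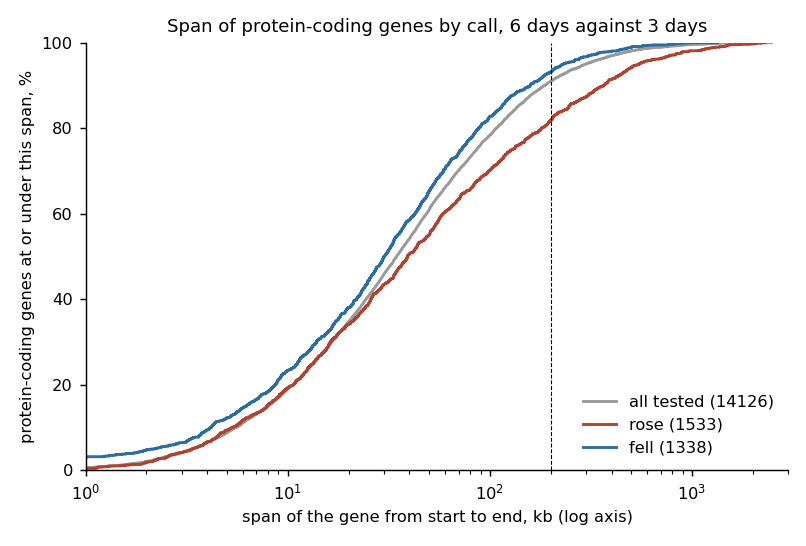
Share of protein-coding genes (y axis, percent) at or under a given span from start to end (x axis, kb, log scale) for genes that rose, genes that fell and all genes tested, with a dashed line at 200 kb. The curve of the genes that rose departs from the others mainly at long spans, where 18.3% lie past the dashed line.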

How the data were processed

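Total RNA of CHP-134 cultures was sequenced by the authors after depletion of ribosomal RNA. Per the submitters' processing notes the tools were Trim Galore 0.4.4, STAR 2.7.10a and RSEM 1.3.3 with hg38, and the deposited gene values are expected counts that the authors estimated with RSEM. The annotation release and the strand setting are not given in the sources used here. Of the deposited values 7.55% were not whole, so they were rounded, and 92 spike-in entries, all at 0, were left out.

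The 8 culture libraries were fitted together in 4 groups of 2 with edgeR 4.0.16 (R 4.3.3), with TMM scaling, filterByExpr at a minimum count of 10, the robust quasi-likelihood test and Benjamini-Hochberg adjustment, which left 20237 of 60662 genes. The biological coefficient of variation was 2.65% with 4 residual degrees of freedom. The study used DESeq2, which was run here as an alternative (version 1.42.0). Calls needed an adjusted p under 0.05 and a change over 2-fold. Contrasts were 6 against 3 days, 1 day against DMSO and the first minus the second. Replicates of a group differed beyond counting noise (chi-square over degrees of freedom 2.08 to 4.59), and each counted as 1 sample. The depth of 31607051 to 39422897 counts makes 3 counts over a group 0.0462 CPM at 3 days and 0.0448 CPM at 6 days. The procedure was tested on simulated counts.

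Genes are named by rule: the 10 largest rises and falls among protein-coding genes with a mean of at least 5 CPM, the 5 largest gains and losses in CPM, listed anchor genes, up to 3 called genes per direction in each list, and 5 genes of each opposite-direction group. Not every gene so chosen is printed, and some are not reported here. The comparison, members and lists were chosen with earlier results of these data known. Promoter motifs were counted in RefSeq windows and are given above only for lists with at least 80% of genes in the table. The sets under that limit were neuronal cytoskeleton genes (73.3%) and all protein-coding genes that rose (73.5%) or fell (79.0%). TTTGAA stood in 18.0% of promoters of all genes that fell and 10.4% of those that rose, against 9.77% of all tested. No neuronal cytoskeleton promoter held it. Other settings tried were DESeq2, other scalings, no filter, a stricter threshold, a replicate block and each library left out.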

Additional observations from a re-analysis of the deposited data

Results flagged for a closer look

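Genes named in the text were singled out when called in opposite directions on the first day and in the late step, with the difference of the steps (late minus first day, log2) itself past edgeR's test. Lower late than on the first day were ALX4 (−4.25), SOX9 (−4.09), HES1 (−3.92), SNAI1 (−2.95), LHFPL2 (−2.90) and PRG2 (−9.17), whose first-day change started from 0.0256 and 0 CPM with DMSO and has no reliable size. Higher late than on the first day were CHRND (2.47), SV2B (3.51), SLC6A2 (3.56), MFNG (4.12) and CADM2 (4.68). The steps last 1 and 3 days, which these values do not correct for, and the cause of these turns was not tested.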

How the results depend on the processing

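The 4269 late calls ranged from 3651 with DESeq2 (2151 higher, 1500 lower) to 4607 without the filter, and from 4087 to 4238 with 1 of the 4 libraries left out. A lone library is then assumed to vary like the other groups. With DESeq2 84.3% of the late calls were kept. The first-day comparison moved more: DESeq2 called 308 genes there (228 higher, 80 lower) and left 34 genes in opposite directions, and the cause was not tested. Same-numbered replicates did not deviate together (correlations of −0.0603 to −0.000379). This shows no shared shift between them, but it cannot tell whether same-numbered samples came from the same culture or batch. A fit with the replicate block called 4255 genes late, 543 on the first day and 3575 in the difference. MYCN passed the 2-fold threshold without the filter (−1.01), and FBL and PRKDC fell short of it without TMM scaling. Depth limits genes near 3 counts per group, and 2 samples a group limit all errors.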
